A study of Mus musculus with 10 samples.

Results

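Small nuclear RNA (snRNA) genes were examined by RNA-seq in E14, a line of mouse embryonic stem cells. A gene was counted as detected when GENCODE vM21 gave it the type snRNA and its mean expected count (a read count estimated by the RSEM program, which divides reads that match several genes) reached 10 over 3 replicates. This limit selected 48 of 1385 annotated snRNA genes, among 55487 genes in the tables. The members were thus chosen by their level, so their levels are given as a description and no level was tested. The cells carried no labelled perturbation and were grown with 15% fetal bovine serum, LIF, 3 µM GSK inhibitor and 1 µM MEK1/2 inhibitor. Total RNA, isolated in Trizol and cleared of DNA and of ribosomal RNA, went into strand-marking libraries that were size-selected on beads. The series holds 10 samples, and its 7 R-loop samples, from the MapR and BisMapR methods, were not analysed here. The 3 RNA-seq replicates form 1 group, so there is no contrast between conditions. The labels do not say that the replicates came from separate cultures, and the p-values below measure only the spread between these libraries, which may be technical.

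The snRNAs are the RNA parts of the particles that remove introns. U1 pairs with the 5′ splice site, U2 with the branch point, and U4, U5 and U6 join as a larger particle in which U6 is held by U4 until the spliceosome is activated. U11, U12, U4atac and U6atac do the same work for the minor class of introns, while U7 acts in the maturation of replication-dependent histone mRNAs. Most snRNAs are made by RNA polymerase II from short genes present in many copies, whereas U6 and U6atac are made by RNA polymerase III. Genomes also hold many decayed snRNA copies, which the annotation lists under the same gene type.

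The sequences of leading records of U1, U2, U4 and the minor spliceosome show why single genes are hard to tell apart. They are the annotated transcripts of GENCODE vM21 on GRCm38. All 48 detected snRNA records and 1335 of the 1337 others matched the RefSeq GRCm38.p6 genome at their coordinates. The remaining records could not be compared. Stretches of known function are set in capitals below. In U1 it is ACTTACC, which pairs with the 5′ splice site. U1a is shown by Gm22317, at chr12:54738459-54738622 on the minus strand, and U1b by Gm25890, at chr3:96486555-96486719 on the minus strand.
Gm22317: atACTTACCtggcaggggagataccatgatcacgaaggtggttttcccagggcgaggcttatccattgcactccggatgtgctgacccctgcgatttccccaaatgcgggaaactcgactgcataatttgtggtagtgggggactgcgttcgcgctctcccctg
Gm25890: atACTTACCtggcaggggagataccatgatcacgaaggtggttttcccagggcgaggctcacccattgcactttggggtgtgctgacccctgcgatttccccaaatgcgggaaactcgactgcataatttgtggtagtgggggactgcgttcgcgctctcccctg
In U2 the capitals mark GTAGTA, which pairs with the branch point of the intron. U2 is shown by Gm23971, at chr11:101645740-101645930 on the minus strand, and by Gm24497, at chr1:72244213-72244403 on the plus strand.
Gm23971: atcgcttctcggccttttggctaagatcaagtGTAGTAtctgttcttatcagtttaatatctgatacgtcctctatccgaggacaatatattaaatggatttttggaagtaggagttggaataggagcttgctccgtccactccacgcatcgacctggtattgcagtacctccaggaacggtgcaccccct
Gm24497: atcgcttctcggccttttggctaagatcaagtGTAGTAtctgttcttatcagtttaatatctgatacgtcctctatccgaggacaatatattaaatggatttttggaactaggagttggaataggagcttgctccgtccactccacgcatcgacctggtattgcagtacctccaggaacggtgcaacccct
In U4 the capitals mark the Sm site, where a ring of Sm proteins closes on the RNA. U4 is shown by Gm24265 (chr5:115489459-115489599, plus).
Gm24265: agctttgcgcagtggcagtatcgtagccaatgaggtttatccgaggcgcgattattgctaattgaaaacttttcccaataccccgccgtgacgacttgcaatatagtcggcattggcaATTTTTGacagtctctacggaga
In the minor spliceosome RNAs the capitals mark the branch point pairing stretch of U12 and the Sm site of U4atac, and U11 and U6atac are shown unmarked. They are Rnu11 (U11, chr4:132270080-132270213, minus), Rnu12 (U12, chr15:83149644-83149794, plus), Gm22710 (U4atac, chr1:118459141-118459265, minus) and Gm25541 (U6atac, chr2:27539805-27539930, minus).
Rnu11: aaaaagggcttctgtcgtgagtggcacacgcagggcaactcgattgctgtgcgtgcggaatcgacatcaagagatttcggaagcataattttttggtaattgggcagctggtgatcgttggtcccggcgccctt
Rnu12: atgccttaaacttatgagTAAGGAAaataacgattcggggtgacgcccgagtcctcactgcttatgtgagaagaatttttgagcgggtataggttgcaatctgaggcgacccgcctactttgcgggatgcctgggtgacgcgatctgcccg
Gm22710: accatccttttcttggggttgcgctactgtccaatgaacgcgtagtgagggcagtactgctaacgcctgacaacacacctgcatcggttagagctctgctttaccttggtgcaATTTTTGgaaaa
Gm25541: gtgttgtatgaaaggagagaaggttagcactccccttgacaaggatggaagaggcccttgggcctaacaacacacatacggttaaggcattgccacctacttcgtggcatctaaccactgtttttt

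The 48 detected genes carried only 34 distinct sequences. Differences below give the base of the named reference, its position from the 5′ end, and the base of the other copy. The U1b records differed from the U1a sequence of Rnu1a1 at T60C, T62C, C73T, C74G and A77G and by 1 or 2 gap bases. Rnu1b1 and Rnu1b2 carried C33T in addition, and Rnu1b6 carried T156G. Against Rnu2-10, 5 U2 members carried G109C, Gm24497 with C186A as its second change. The U4 copies Gm24265 and Gm24407 differed at G88A and C99A. Among records with a sequence, ACTTACC was in 20 of 22 U1 members (90.9%) against 30.3% of the 122 other U1 records, and GTAGTA was in all 12 U2 members against 26.3% of the 19 others.

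The libraries held 11420425, 6467405 and 5787357 counts in replicates 1, 2 and 3. Levels are given as counts scaled to that total (CPM), so a floor of 3 counts stood at 0.263, 0.464 and 0.518 CPM. Pluripotency genes were present, Nanog at 182.8 TPM and Pou5f1 at 149.1 TPM (a level scaled by transcript length), while Gata6, Sox17, T, Pax6, Cdx2 and Col1a1 were each below 0.1 TPM and Fgf5 was listed at 0. Of the 19 listed markers 10 reached 1 TPM, the 8 pluripotency genes with Vim at 17.7 and Nes at 1.92 TPM, while Eomes stood at 0.953 and Gata4 at 0.45 TPM. The detected snRNA genes took 2.69%, 3.13% and 4.45% of all counts, highest in replicate 3. Their annotated lengths ran from 107 to 191 nt, but their effective lengths, the number of start positions a fragment of the library's size could take, were only 2.51 to 61.6 nt. Shorter snRNAs therefore had less chance to be counted, and the deposited TPM, which divides by that length, served only as a comparison for their levels. Fewer cells with an RNA and less of it per cell cannot be told apart in such bulk samples.

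U2 was the class with the most counts, followed by U1, U4 and U5, and the minor spliceosome RNAs stood far lower. The U2 members summed to 17445, 22742 and 21942 CPM in replicates 1, 2 and 3 (20710 ± 2855, SD, n = 3). The U1 members summed to 6699, 6603 and 17061 CPM, with replicate 3 well above the other two. The U4 pair gave 2312, 1605 and 4913 CPM, again highest in replicate 3. U5 was even across libraries, at 294, 243 and 328 CPM. Per 100 nt of RNA the mean levels were 10843 ± 1495 CPM for U2, 6164 ± 3660 for U1, 2088 ± 1236 for U4 and 249 ± 37.1 for U5 (SD, n = 3). On that per-length scale U2 lay above U1 in each replicate, with 9134 against 4080, 11907 against 4021, and 11488 against 10390 CPM per 100 nt. That scale uses the annotated length and does not undo the loss of short RNAs. In the deposited TPM, which divides by effective length, the ratio of U2 to U1 was 1.58, 1.99 and 0.803, so the order turned in replicate 3. The mean TPM sums were 130364 ± 23329 for U2, 97965 ± 32300 for U1, 53850 ± 15898 for U4 and 16854.5 ± 3995 for U5 (SD, n = 3). The steps between the class means were smaller in that unit. On the scale per 100 nt of annotated length the replicates of U2 and U1 overlap, whereas those of U1 and U4 (1138 to 3485), and of U4 and U5 (209 to 283), do not.

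**Figure D1:**
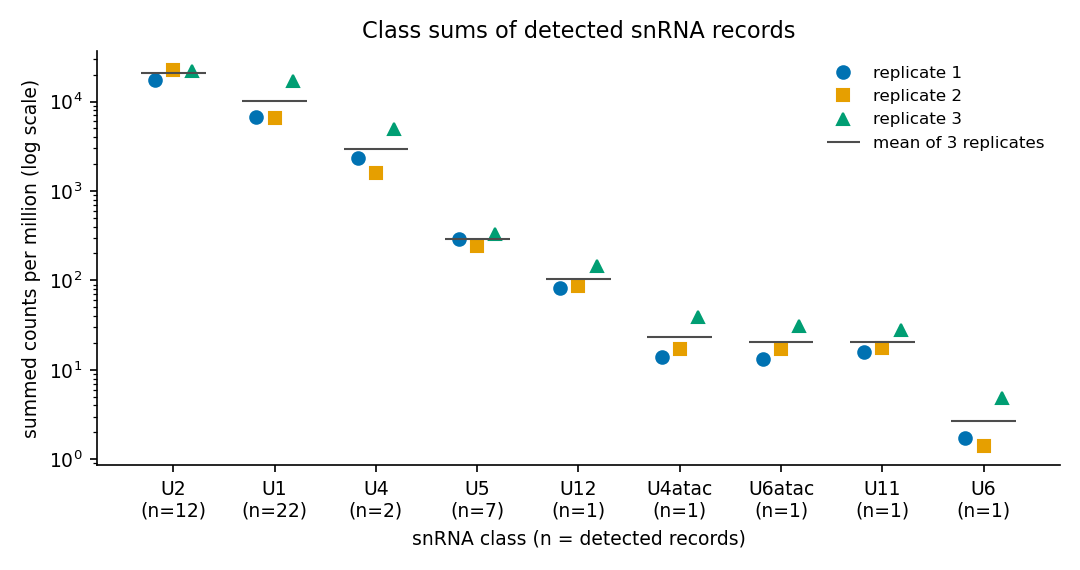
Summed CPM of the detected records of each snRNA class (log axis) in the 3 replicates, with the mean as a bar. U2 sits near 20710 CPM, U6 near 2.66 CPM, and replicate 3 is the highest point in every class except U2.

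The minor spliceosome RNAs were each a single detected gene. Rnu12, the U12 gene, was counted at 81.8, 86.9 and 145.7 CPM. Rnu11, the U11 gene, stood at 15.8, 17.8 and 27.6 CPM. Gm22710, the U4atac gene, stood at 14.0, 17.3 and 38.7 CPM, and Gm25541, the U6atac gene, at 13.4, 17.2 and 30.8 CPM. All 4 were highest in replicate 3 and together made up 0.485% ± 0.0536 of the detected snRNA counts (SD, n = 3). U11 and U12 sit in 1 particle, and their count ratio was 0.194, 0.205 and 0.190 in replicates 1, 2 and 3. Its coefficient of variation (SD over mean), 3.94%, was the lowest of the 12 count ratios computed. Rnu11 had only 181, 115 and 160 counts, and whether this ratio is steadier than the others was not tested. Per length the U11 to U12 ratio was 0.221 ± 0.00870, and in the deposited TPM it was 0.345 ± 0.0328 (SD, n = 3). U4atac and U6atac, which pair with each other, had count ratios of 1.05, 1.01 and 1.26. Per length, U11, U4atac and U6atac lay at 15.2 ± 4.72, 18.7 ± 10.7 and 16.2 ± 7.25 CPM per 100 nt with overlapping replicates, while U12 lay above all of theirs at 69.4 ± 23.5 (SD, n = 3). In the deposited TPM the lead of U12 was smaller, at 1475 ± 97.0. U11, U4atac and U6atac stood at 509 ± 50.1, 800 ± 189 and 692 ± 127 in that unit (SD, n = 3). Gm22710 lies in 2900060B14Rik, a gene of 2.79 CPM on its own strand, and in an intron of Clasp1 (63.0 CPM) on the other strand, and the part of either in its count was not tested.

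U6 and U7 were nearly absent from the counts. Of 863 annotated U6 records, Gm22798 was the only one to reach the limit, with 20, 9 and 28 counts in replicates 1, 2 and 3. The full set of U6 records summed to 6.21, 6.96 and 15.9 CPM. Rnu6, one of 43 records with the Gm22798 sequence, was at 0 in each library, and 13 of the 43 had any count. A U6 fragment had an effective length of 3.82, 2.51 and 5.18 nt. Rnu7, the U7 gene (chr6:124741225-124741286, minus), is 62 nt long, and its effective length was 0 in every table. It had 0 counts, as did all 61 U7 records. The libraries were thus not able to count U7, and the U6 counts say little of its level, so no ratio of U4 to U6 is given.

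The U2 to U1 balance changed from library to library. The ratio of counts was 2.60, 3.44 and 1.29 in replicates 1, 2 and 3 (2.44 ± 1.09, SD, n = 3). U2 made up 64.9%, 72.6% and 49.3% of the detected snRNA counts, and U1 24.9%, 21.1% and 38.3%. Within U1, the U1b form, which mouse cells make chiefly in early development, accounted for 20.6%, 24.2% and 16% of counts. The Wilson 95% interval of the U1b share was 20.3% to 20.9%, 23.8% to 24.6% and 15.8% to 16.2%, and since reads are not independent molecules it covers counting error only. These intervals do not overlap, but they treat reads as independent and can be too narrow. A difference in this share between libraries was not tested. U1a summed to 5320, 5007 and 14330 CPM and U1b to 1379, 1596 and 2731 CPM, both highest in replicate 3.

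**Figure D2:**
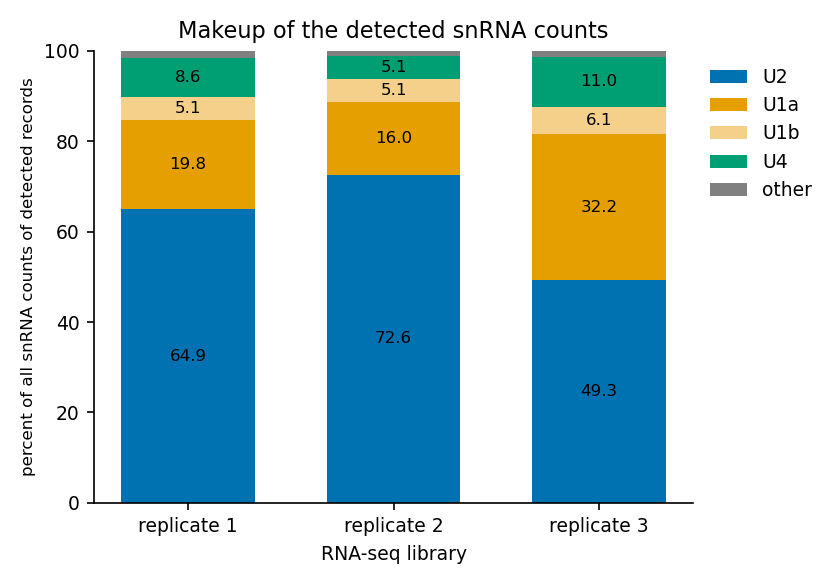
Percent of all counts of the detected snRNA genes that fell to U2, U1a, U1b, U4 and the other classes in each replicate. U2 falls to 49.3% in replicate 3, where U1 reaches 38.3%.

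In U4 and U1b, the shares of distinct sequences varied less than the totals of the form. Gm24265 made up 61.1%, 59.6% and 60.4% of U4 counts, with Gm24407 as the rest. Within U1b, the Gm25890 sequence held 64.0%, 65.7% and 66.4%, the sequence of Rnu1b1 and Rnu1b2 held 26.7%, 26.6% and 26.1%, and the Rnu1b6 sequence held 9.27%, 7.69% and 7.51%. In U2, members with G at position 109 held 61.7%, 65.2% and 62.0% of counts and those with C held 34.1%, 31.0% and 33.5%. In 2 U2 sequences the spread was larger than in the U2 sum, whose coefficient of variation was 13.8%, against 49.7% for the level of Gm24497 and 29.4% for that of the Gm23444 sequence. Gm24497 held 10.3%, 14.2% and 5.58% of U2 counts, and the Gm23444 sequence, with 2 genes, held 19.9%, 13.7% and 24.1%. These sequences are nearly identical, and the part of RSEM's division of shared reads in their spread was not tested. In U5, Gm23143 led with 31.8%, 36.9% and 39.6%, followed by Gm25099 with 18.8%, 18.1% and 17.6%. Gm25313, Gm23287 and Rnu5g held about equal parts of U5, at 12.1% ± 1.01, 12.2% ± 0.199 and 11.9% ± 0.622 (SD, n = 3). Gm24871 had 8.03%, 6.82% and 3.01% of U5 counts.

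**Figure D3:**
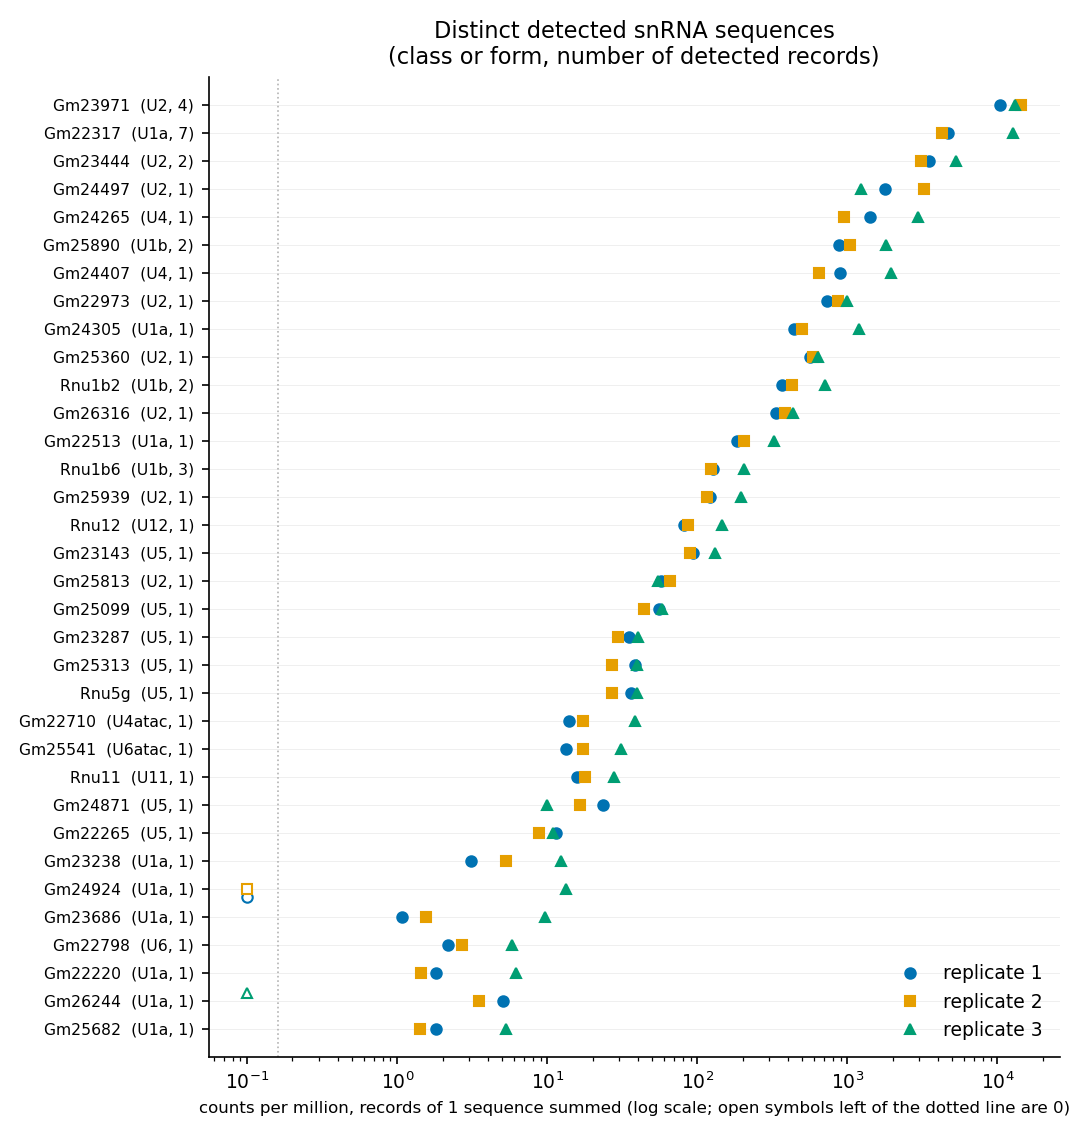
CPM (log axis) of each of the 34 distinct detected snRNA sequences in the 3 replicates, with records of 1 sequence summed (for Gm22798, all 43 records that share its sequence). Replicate 3 is the highest point in 28 of the 34, and Gm24497 is among the exceptions.

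Single snRNA genes, like other short genes, were called variable between replicates more often than genes at large. The spread was tested with edgeR's goodness of fit, which asks whether a gene's counts depart from 1 level by more than the dispersion trend of all genes, with Benjamini-Hochberg adjustment over every gene tested and a call at an adjusted p under 0.05. Of the 48 members, 39 passed edgeR's filter on low counts and 19 of them (48.7%) were called, against 1.84% of all 12577 genes tested. In the same fit, 42 of 150 other tested genes under 300 nt (28%) were called. With identical counts kept once, 13 of 32 rows of members were called. A smooth correction for gene length in each library left 13 of the 39 members called (33.3%). With it, 3 of the 150 other short genes (2%) and 1.47% of all genes tested were called. The 9 members not tested were 6 of the lowest counts and the 3 plus-strand U2 copies Rnu2-10, Gm24950 and Gm23849. Rnu1b6, a U1b gene, had the smallest adjusted p of the members, 2.92e-18 (edgeR), with 9.99, 93.9 and 96.4 CPM in replicates 1, 2 and 3. Gm22614, another U1b gene, followed at 26.5, 50.4 and 143.9 CPM (edgeR adjusted p = 4.38e-12). Of the 17 tested members that shared their sequence with another member, 13 were called. Of the 22 tested members with a sequence of their own, 6 were called. Without replicate 1, 2 or 3, the number of members called was 13 of 39, 5 of 45 or 12 of 43 tested. The share of other tested genes under 300 nt called in these fits was 9.40%, 8% and 3.33%.

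Genes with the same sequence had the same counts when they lay on the same strand and different counts when they lay on opposite strands. More than 1 member carried each of 6 sequences, which cover 20 members. Counts were equal (within 0.01) in all 4 sequences with more than 1 member on a strand, and unequal in all 5 with members on both strands. The U1a sequence was carried by 7 members. Gm22317 and Gm25679, on the minus strand of chromosome 12, each had 23340, 13037 and 32581 counts. Rnu1a1, Gm22068, Gm22634, Gm23804 and Gm26444, on plus strands, each had 1356, 332 and 1750 counts. The U2 sequence was split in the same way, with the minus-strand Gm23971 at 10309, 14375 and 12958 CPM and its 3 plus-strand copies together at 56.4, 0 and 147.2 CPM. Gm23444 and Gm23472, U2 copies on chromosomes 11 and 1, are both on the plus strand and had equal counts. Why the strands differ was not tested, and the strand setting of the counting is not given in the sources used here.

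The side that held more counts changed between replicates in 2 of the 3 U1b sequences. In the other, that of Gm25890 and Gm22614, the minus-strand gene held 97.0%, 95.2% and 92.1%. Rnu1b1 is on the minus strand and Rnu1b2, with the same sequence, on the plus strand. Rnu1b1 stood at 71.7, 352.8 and 296.2 CPM, while Rnu1b2 stood at 296.3, 72.2 and 417.1 CPM, so replicates 1 and 2 order the pair in opposite ways. Their sum was 368, 425 and 713 CPM. The minus-strand gene thus held 19.5%, 83.0% and 41.5% of the pair's counts. For the Rnu1b6 sequence, the minus-strand share was 7.82%, 76.4% and 47.0%, with Gm24830 and Gm26232 on the plus strand. Gm24830 and Gm26232 each stood at 58.9, 14.5 and 54.3 CPM, lowest in replicate 2, and the 3 genes together stood at 127.8, 122.8 and 204.9 CPM.

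**Figure D4:**
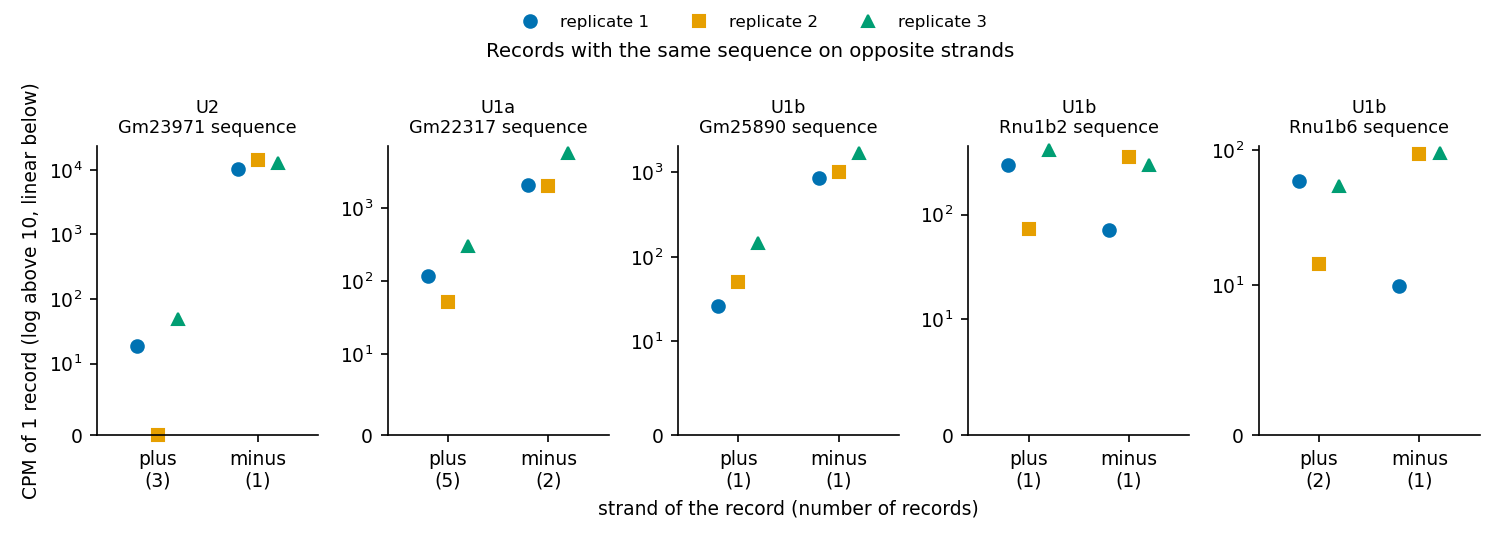
CPM of 1 record (linear below 10, log above) on the plus and the minus strand, for the 5 sequences with detected records on both strands, in the 3 replicates. For U2, U1a and the Gm25890 sequence the minus strand lies above the plus strand in every replicate, while for the Rnu1b2 and Rnu1b6 sequences the order changes.

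Summing the records of each sequence before the fit, an alternative added after the split was seen, merged the 7 U1a calls into 1 and ended the 6 U1b calls. Then 7 of 29 tested sequences were called, against 1.93% of all 12567 rows in that fit. Rnu1b6 moved from 2.92e-18 to an adjusted p of 0.166 (edgeR), and the sequences of Gm25890 and Rnu1b2 to 0.0596 and 0.0694. The median coefficient of variation of the 20 members with shared sequences was 70.2%, and that of their 6 summed sequences was 33.6%. The sequences that were called after summing were the U1a sequence of Gm22317 (4681, 4288 and 12771 CPM, edgeR adjusted p = 0.000205), Gm24305 and Gm23238 of U1, Gm24265 and Gm24407 of U4, Gm22710 of U4atac and Gm25541 of U6atac. Each was highest in replicate 3. Leaving out replicate 1, 2 or 3 gave 4 of 29, 2 of 31 or 1 of 32 tested sequences called. In those fits 9.40%, 8.67% and 4.67% of other tested genes under 300 nt were called.

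Short genes of other kinds also stood higher in replicate 3. The median deviation from a gene's own mean, on the log2(CPM + 0.5) scale, was -0.32, -0.14 and 0.50 in replicates 1, 2 and 3 for the 150 other tested genes under 300 nt, -0.15, -0.24 and 0.57 for the 39 tested members, and 0.07, 0.05 and -0.11 for all tested genes. In the fit with sequences summed, 46 of those 150 short genes (30.7%) were called, set beside 24.1% of the snRNA sequences. Small nucleolar RNAs, which guide chemical modification of other RNAs, summed to 17925, 20513 and 21465 CPM. With a smooth correction for gene length in each library, 3 of the 150 (2.0%) and 2 of the 29 snRNA sequences were called, against 1.46% of all rows, and none of the 7 called without the correction was among the 2. Those 2 were Gm24497 of U2 (1791, 3234 and 1225 CPM, edgeR adjusted p = 8.81e-06) and Gm24871 of U5 (23.6, 16.6 and 9.88 CPM, edgeR adjusted p = 4.28e-06), both lowest in replicate 3 and not called without the correction (0.0804 and 0.434). Gm24497 and the Gm23444 sequence share G109C and differ by C186A alone. That sequence moved the other way, with 3478, 3116 and 5288 CPM. The sum of the 5 members with C at position 109 was steadier than either sequence, at 5951, 7050 and 7344 CPM. A read that misses the base where Gm24497 and the Gm23444 sequence differ matches both, and RSEM divides such reads. The part of this division in their opposite changes, and in the call of Gm24497, was not tested.

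When the members were summed by class, U1, U4, U4atac and U6atac were called (edgeR adjusted p = 0.000796, 0.000337, 0.000492 and 0.02). These were 4 of the 8 classes tested, against 1.93% of all 12492 rows. In the same fit, 47 of 149 other tested genes under 300 nt (31.5%) were called. U12 and U11 were not called, with adjusted p of 0.0602 and 0.317 and replicate 3 at 1.78 and 1.74 times replicate 1. U2 and U5 had adjusted p of 1, with replicate 3 at 1.26 and 1.12 times replicate 1. U1 and U4 stood at 2.55 and 2.12 times. Whether the classes differ from each other in this rise was not tested.

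The detected genes lay in a few clusters. Joining members within 100 kb gave 8 clusters with 32 members and 90.7% of the members' counts. All 7 U1b genes lay on chromosome 3 within 160469 bp, and 7 U1a-type genes on chromosome 12 within 41841 bp. U2 genes formed a cluster of 5 on chromosome 11 (38.6% of counts) and one of 4 on chromosome 1 (14.4%). The U4 pair lay within 936 bp on chromosome 5, and 3 U5 genes within 21018 bp on chromosome 4. Inside longer genes of at least 1 CPM on the same strand were 7 members, among them Rnu1a1 and Gm22068 in Tex14 (45.8 CPM) and Gm23849 in Rdm1. Since records of 1 sequence share reads, the location of a count among identical copies is uncertain.

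The stretch upstream of detected genes was searched for the elements known from snRNA promoters. Those promoters carry a distal element with an octamer, bound by Oct factors, and a proximal element bound by the SNAPc complex. Windows ran from 250 bases before to 50 after each start, both strands were read, and the window of each member was taken from RefSeq GRCm38.p6. The octamer ATTTGCAT (or ATGCAAAT on the other strand) was in 11 of 12 U2 members (91.7%), in none of the 19 other U2 records, and in 1.74% of 32851 RefSeq promoters of the same length. It was in 20 of all 48 members (41.7%) and in 2.77% of 1335 other snRNA records. Of the U1 members, 1 of 22 had it. A changed octamer, ATGNAGAT, chosen after the U1 windows were seen, was in 13 of 22 U1 members (59.1%), in 6.56% of other U1 records and in 3.62% of promoters. The pentamer ACCGT, also chosen after they were seen and read on the gene's strand from 75 to 41 bases before the start, was in 16 of 22 U1 members (72.7%), in none of the other 122 and in 0.794% of promoters. It was in 3 of 12 U2 members (25%), 1 of 7 U5 members (14.3%) and 0.599% of other snRNA records. Copies within a cluster resemble each other, so these counts are not independent, and a match describes letters and not binding.

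The 250 bases upstream of the leading U2 and U1a genes are shown with these matches in capitals. The octamer begins 233 bases before the start of Gm23971 (chr11:101645931-101646180, minus). The changed octamer begins 210 bases before the start of Gm22317 (chr12:54738623-54738872, minus). ACCGT begins 59 bases before the start in both Gm23971 and Gm22317.
Gm23971: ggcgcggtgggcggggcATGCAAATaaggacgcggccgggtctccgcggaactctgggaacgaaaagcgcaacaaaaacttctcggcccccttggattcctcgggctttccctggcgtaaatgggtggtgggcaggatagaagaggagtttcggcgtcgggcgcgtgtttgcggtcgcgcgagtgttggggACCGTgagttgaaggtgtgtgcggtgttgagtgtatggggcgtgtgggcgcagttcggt
Gm22317: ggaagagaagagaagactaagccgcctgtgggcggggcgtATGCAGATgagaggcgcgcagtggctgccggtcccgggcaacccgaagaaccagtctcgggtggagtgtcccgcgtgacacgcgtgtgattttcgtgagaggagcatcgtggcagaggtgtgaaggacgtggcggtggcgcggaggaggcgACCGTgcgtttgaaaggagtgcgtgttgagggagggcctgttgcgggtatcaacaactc

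**Figure D5:**
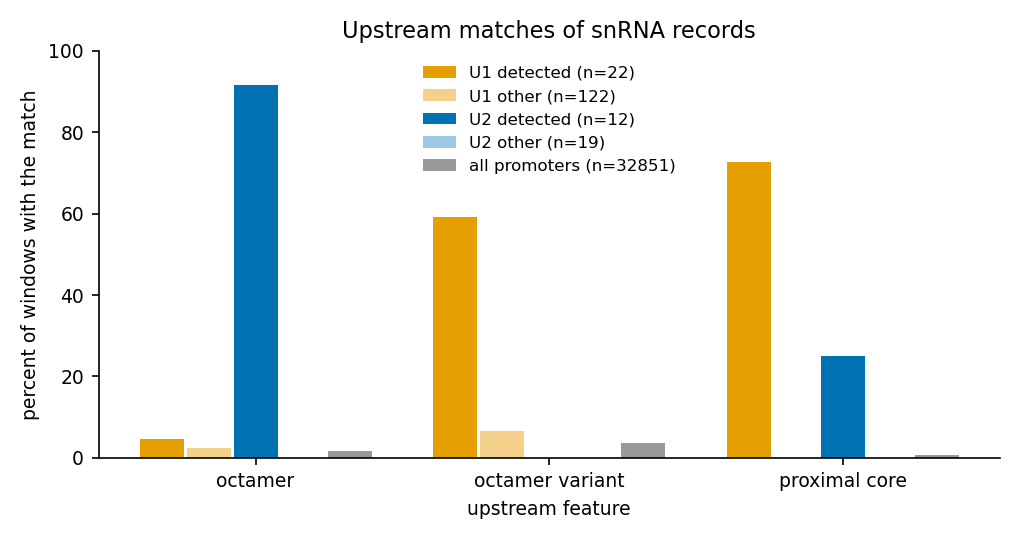
Percent of windows with the octamer, the changed octamer and the proximal pentamer for detected and other U1 and U2 records and for all RefSeq promoters; a missing bar is 0. The octamer reaches 91.7% in detected U2 genes, and the changed octamer and the pentamer reach 59.1% and 72.7% in detected U1 genes.

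RNA was detected for every listed gene whose protein builds or uses snRNAs. All 114 genes of 11 lists reached a mean of 1 TPM, as did 10486 of all 12577 genes tested. The median of the 114 was 9.26 TPM beside 4.38 TPM for all genes tested. The spread test called 1 of the 114, against 1.84% of all genes. That gene was Snrpd2, a subunit of the Sm ring, at 15.8, 14.5 and 21.5 TPM (edgeR adjusted p = 0.0441), and it was no longer called without the filter on low counts, with a common dispersion, or without any 1 of the replicates. Among the other Sm genes, Snrpg was highest (98.6 ± 9.10 TPM) and Snrpf lowest (2.30 ± 0.90 TPM; SD, n = 3).

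Snrnp70 and Snrpc of the U1 particle stood at 40.2 ± 4.29 and 30.9 ± 6.60 TPM. In the U2 particle, Sf3b3 was highest at 44.2 ± 9.25 TPM and Sf3b5 lowest at 3.62 ± 0.392 TPM. The helicases Snrnp200 and Ddx23 marked the ends of the U5 list, at 36.6 ± 8.33 and 8.58 ± 1.85 TPM. Snu13, which binds U4, stood at 80.7 ± 10.9 TPM and Lsm6, of the ring on U6, at 3.64 ± 0.428 TPM. The minor spliceosome list ran from Snrnp48 at 10.9 ± 2.54 TPM to Snrnp35 at 1.24 ± 0.18 TPM. Its median was 6.09 TPM, against 32.7 TPM for the 3 genes of the U1 list, the highest median of the 11 lists. The lists for snRNA transcription (4.76 TPM) and for U7 and histone RNA processing (4.995 TPM) had lower medians.

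Genes that make and mature snRNAs were measured as well. The median of the transcription list was 4.76 TPM, from Tbp (14.2 ± 3.25 TPM) to the SNAPc subunit Snapc1 (1.41 ± 0.298 TPM). The Integrator complex, which cuts the 3′ ends of snRNAs, ran from Ints4 (21.5 ± 2.39 TPM) to Ints12 (5.16 ± 1.12 TPM). Among export and assembly factors, the exportin Xpo1 stood at 68.5 ± 12.8 TPM and the SMN complex subunit Gemin8 at 1.79 ± 0.803 TPM. For U6, the La protein gene Ssb, whose product binds new RNA polymerase III transcripts, stood at 31.7 ± 2.87 TPM and the uridylyltransferase Tut1 at 3.88 ± 0.859 TPM. For histone mRNA processing, where U7 works, Slbp stood at 23.5 ± 7.08 TPM and Zfp473 at 1.69 ± 0.0737 TPM (SD, n = 3 for each value here).

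Just above the limit of 10 mean counts were the U1 records Gm22220 and Gm25682 and the U6 record Gm22798, at 21.8, 20.1 and 19.0 mean counts. Just below it were Gm25704 (7.75), Gm25202 (7.01) and Gm23511 (5.93). Among the low members, Gm24924 had 0, 0 and 76.6 counts and Gm26244 had 58.1, 22.8 and 0 counts in replicates 1, 2 and 3. Both are U1 records inside expressed genes of their own strand, as is Gm23686, and reads of the host and of the record were not separated. Counts were found in 158 of the 1385 annotated records, and the detected ones held nearly all of them, 26878, 31333 and 44492 of 26888, 31344 and 44519 CPM.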

How the data were processed

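The 3 RNA-seq replicates of 1 group were used, and samples were grouped and numbered by their titles. The submitters' processing notes name Bowtie2, RSEM, SAMtools, STAR, deepTools and mm10 for the series. Per the file headers, the authors deposited RSEM expected counts, estimated and not normalized, with TPM, length and effective length. FPKM, per the file headers in the same tables, was left aside. Annotation release and strand setting are not given in the sources used here. RSEM's division of shared reads decides how counts fall among identical copies, and reads shared by nearly identical copies are divided too. Names, types and coordinates came from GENCODE vM21 (GRCm38), which matched 55227 of 55487 genes. Classes came from the symbol or RefSeq description, then from a blastn match (BLAST+ 2.17.0; 80% identity over 80% of the shorter sequence), and for U4atac from general knowledge.

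CPM was the expected count over the library total. Expected counts were rounded for edgeR 4.0.16 in R 4.3.3 (TMM, filterByExpr, intercept only, trended dispersion, chi-square test of the deviance), and the test was checked on simulated data. The design planned ratios of class sums, list counts and named genes (Rnu symbols, the 3 highest members of each class, the 10 highest of all, the 10 of smallest adjusted p, the 3 on either side of the limit, and the highest, lowest and called gene of each list). Members, lists and tests were chosen with earlier results of these data known. Alternatives changed normalization (DESeq2 1.42.0), filters, dispersion, class assignment, scaling, length correction (loess, span 0.5) and replicates. Sequences were read with pyfaidx 0.9.0.4 and aligned with biopython 1.88, in Python 3.11.15 (scipy 1.17.1, pandas 2.3.3, numpy 2.4.6; figures by matplotlib 3.10.9). Wilson intervals are at 95%. Intervals and floors cover counting error only. The sequences of some members are not reported here.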

Additional observations from a re-analysis of the deposited data

How the results depend on the processing

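No paired analysis was possible because the RNA-seq replicates form 1 group and no other group was analysed here. The number of detected genes ran from 40 to 55 under other limits. The summed level of the detected genes, 34234 CPM, was 47318 CPM over nuclear protein-coding counts and 302731 in the deposited TPM, where division by effective lengths of a few nt raises short RNAs, and it ran from 29105 to 37912 CPM when 1 replicate was left out. The U2 to U1 ratio of 2.44 ran from 1.95 to 3.02 when 1 replicate was left out, and was 1.46 in the deposited TPM, an alternative chosen after seeing the data. In that unit the U11 to U12 ratio was 0.345 and the U4 to U1 ratio 0.556, against 0.196 and 0.292 in counts, and the minor to major ratio was 0.0116 against 0.00487. The number of members called for spread, 19 of 39 tested, was 12 of 43 without replicate 3, 5 of 45 without replicate 2 and 13 of 39 without replicate 1. It was 19 of 39 with DESeq2 size factors, 21 of 39 with a common dispersion and 24 of 48 without the filter on low counts. With a length correction alone it was 13 of 39, and with identical counts kept once 13 of 32. In these fits, in that order, 28%, 28.7%, 20%, 2% and 28.7% of other tested genes under 300 nt were called. Of all genes tested, 1.84% were called in the main fit and 1.47% with the length correction. The number of calls was 7 with identical sequences summed, 2 with a length correction as well, and 4 with classes summed. These fits have fewer rows to call. The first of them, alone and with the length correction, was added after seeing the data. The 1 splicing-related gene called became 0 without the filter on low counts and with a common dispersion, and 0 when any 1 replicate was left out. Records near the limit had 5.93 to 21.8 mean counts, and the 3 libraries limit every spread. With 3 samples, no test for a sample far from the others was made.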
